A study of Homo sapiens with 16 samples.

Results

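The 36 cholesterol and fatty acid synthesis genes described here were taken by gene symbol from a list of sterol and fatty acid pathway genes, and stand among 19315 genes listed in at least 1 of 6 tables of RNA sequencing results. They comprise 7 genes of the mevalonate pathway, 11 genes of sterol synthesis from farnesyl diphosphate onward, 5 genes of the SREBP transcription factors and their control, 5 genes of sterol transport and efflux, and 8 genes of fatty acid synthesis. Total RNA came from U2OS, a human osteosarcoma line, and from HCT116, a human colorectal carcinoma line. Each line received small interfering RNA (siRNA) against MYBL1, against MYBL2 or against both together (the double knockdown), or a non-targeting siRNA (siCtrl), and was collected at 48 h. MYBL1 and MYBL2 encode A-MYB and B-MYB, transcription factors of the MYB family with roles in the cell cycle. The 8 groups held 2 libraries each, 16 in all, biological replicates per the series' design text. The siRNA sequences, and whether each was a pool, are unstated in the sources at hand.

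Each table set 1 knockdown against siCtrl of its own line, so the 3 tables of a line share their siCtrl libraries. A table gives the base mean of a gene, taken here as the mean normalized count over the 4 libraries compared. It also gives the log2 fold change of knockdown over siCtrl with its standard error (SE). A p-value of the authors' DESeq2 Wald test follows, with Benjamini-Hochberg adjustment over the genes listed. A gene is said to have risen or fallen where this adjusted p was under 0.05. The tables hold no value per library, so no spread between single libraries can be shown. The group levels below, in normalized counts, were computed from the base mean and the fold change of the authors' deposited table and carry no error of their own. In RNA of whole cultures, fewer cells of a type and less RNA per cell cannot be told apart.

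Cholesterol is made from acetyl-CoA through mevalonate, the isoprenoid farnesyl diphosphate, squalene and lanosterol. Its enzymes are transcribed under SREBP2, the product of SREBF2, while SREBP1, from SREBF1, acts more on fatty acid genes. Both precursors sit in the endoplasmic reticulum bound to SCAP, which carries them to the Golgi for cleavage when sterols are low, and which INSIG1 and INSIG2 hold back when sterols are plentiful. At many of these promoters SREBP works beside NF-Y, a trimeric factor that binds the sequence CCAAT.

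The promoters of 6 members are shown, written as RefSeq gives them on GRCh38.p14, from 250 bases before to 50 bases after the start, 5′ to 3′ on the strand of the gene. HMGCS1, MSMO1 and DHCR7 were chosen because they rose after siMYBL1 in U2OS, EBP and SCD because they fell after siMYBL2 in U2OS, and SREBF2 because it encodes the main activator of the pathway. Other members that moved there are not shown, among them CYP51A1, which rose, and SREBF1, which fell. The windows of CYP51A1 and SREBF1 held no CCAAT on either strand. Capitals mark CCAAT or its reverse complement ATTGG and, in SREBF2, a match to the sterol regulatory element TCACNCCAC. HMGCS1 lies on the reverse strand at chr5:43313363-43313662, MSMO1 on the forward strand at chr4:165327419-165327718 and DHCR7 on the reverse strand at chr11:71448344-71448643. EBP lies on the forward strand at chrX:48521558-48521857, SCD on the forward strand at chr10:100346983-100347282 and SREBF2 on the forward strand at chr22:41832855-41833154.
HMGCS1: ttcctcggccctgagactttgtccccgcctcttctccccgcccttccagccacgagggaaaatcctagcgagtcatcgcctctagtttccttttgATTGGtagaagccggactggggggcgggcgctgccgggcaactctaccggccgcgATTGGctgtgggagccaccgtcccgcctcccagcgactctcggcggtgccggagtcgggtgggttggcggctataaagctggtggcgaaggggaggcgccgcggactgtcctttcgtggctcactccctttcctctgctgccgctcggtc
MSMO1: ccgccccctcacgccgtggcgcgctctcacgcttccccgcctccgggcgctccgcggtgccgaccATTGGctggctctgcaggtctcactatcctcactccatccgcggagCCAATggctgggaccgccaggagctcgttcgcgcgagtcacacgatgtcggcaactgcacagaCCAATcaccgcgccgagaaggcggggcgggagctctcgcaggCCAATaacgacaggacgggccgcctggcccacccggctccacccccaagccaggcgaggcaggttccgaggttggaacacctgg
DHCR7: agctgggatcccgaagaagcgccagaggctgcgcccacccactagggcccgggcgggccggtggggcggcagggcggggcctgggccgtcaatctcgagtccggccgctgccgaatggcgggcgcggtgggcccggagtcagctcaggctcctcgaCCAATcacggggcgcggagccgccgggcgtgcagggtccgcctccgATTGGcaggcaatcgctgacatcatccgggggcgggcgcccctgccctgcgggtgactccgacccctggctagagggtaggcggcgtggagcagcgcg
EBP: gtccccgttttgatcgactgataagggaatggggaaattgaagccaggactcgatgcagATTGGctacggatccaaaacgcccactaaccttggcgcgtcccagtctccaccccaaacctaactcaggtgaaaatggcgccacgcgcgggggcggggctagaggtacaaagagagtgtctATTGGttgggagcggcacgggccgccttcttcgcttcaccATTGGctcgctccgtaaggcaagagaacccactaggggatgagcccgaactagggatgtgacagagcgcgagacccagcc
SCD: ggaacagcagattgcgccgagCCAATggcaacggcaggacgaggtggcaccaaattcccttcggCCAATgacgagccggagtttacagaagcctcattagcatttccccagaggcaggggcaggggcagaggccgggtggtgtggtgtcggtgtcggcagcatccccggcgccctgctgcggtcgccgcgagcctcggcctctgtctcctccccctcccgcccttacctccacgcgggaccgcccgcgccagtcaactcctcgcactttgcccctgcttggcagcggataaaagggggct
SREBF2: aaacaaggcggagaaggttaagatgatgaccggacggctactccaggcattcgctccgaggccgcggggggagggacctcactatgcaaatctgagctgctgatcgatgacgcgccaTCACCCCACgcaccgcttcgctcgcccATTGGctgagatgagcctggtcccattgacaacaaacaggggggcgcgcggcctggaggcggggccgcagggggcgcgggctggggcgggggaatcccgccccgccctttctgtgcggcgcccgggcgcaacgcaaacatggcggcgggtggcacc

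CCAAT on either strand was found 4 times in the MSMO1 promoter, 3 times in that of EBP, 2 times each in those of HMGCS1, DHCR7 and SCD, and 1 time in that of SREBF2, positions being counted from the start. The most distal match among the 6 lay at -229 to -225 in SCD and the nearest to a start at -30 to -26 in EBP. The sterol regulatory element of SREBF2 spanned -133 to -125 and stood upstream of its ATTGG at -106 to -102. HMGCS1 and DHCR7 each have a second annotated start, whose window held none of these letters.

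The depth of single libraries is unknown, and base means summed to between 17441617 and 19826741 per table. In the authors' deposited tables MYBL2 stood at 4.53% of the siCtrl level in U2OS and 9.05% in HCT116 after siMYBL2, and MYBL1 at 50.7% in U2OS and 31.4% in HCT116 after siMYBL1, so MYBL1 transcript remained in both lines. In the double knockdown MYBL2 stood at 4.34% in U2OS and 9.92% in HCT116, and MYBL1 at 43.5% and 27.8%. The gene not targeted did not pass in the single knockdowns. MYBL2 stood at 81.6% in U2OS and 97.6% in HCT116 after siMYBL1, and MYBL1 at 86.4% and 75.6% after siMYBL2. Mesenchymal markers had 6 of 8 genes listed in U2OS with summed base means of 71927 to 81544, against 5 to 7 genes and 1131 to 1518 in HCT116. Epithelial markers had 4 to 6 of 8 genes listed in U2OS with summed base means of 48423 to 54238, against 8 genes and 69919 to 80253 in HCT116, and the keratin genes KRT8 and KRT18 made up most of the U2OS sum. Of 8 blood cell markers, 0 to 2 were listed per table. Of 6 listed mesenchymal markers in U2OS, 1 rose after siMYBL1, 1 fell after siMYBL2, and 3 rose and 1 fell in the double knockdown, where 1 of 6 epithelial markers fell. In the HCT116 double knockdown 2 of 8 epithelial markers rose, and the other listed markers did not pass in these or the other tables. The shares of all genes that passed in each table stand beside the members' counts below. The markers' part in the results below was not tested.

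Of the 36 genes, 34 were listed in all 6 tables, 15 passed in at least 1 table (41.7%, beside 15.8% of all 19315 genes) and 21 in none. These 2 shares are not alike, but the members were chosen with earlier results of these data known. The shares here and in the single tables below are therefore a description and no independent test. Single tables listed 12885 to 17323 of the 19315 genes, so many of those genes had fewer tables to pass in than most members had. No gene passed in more than 2 tables, and 1 gene, HMGCS1, passed in both directions. The median log2 fold change of the listed members in U2OS was 0.23 after siMYBL1, -0.29 after siMYBL2 and -0.03 in the double knockdown, where all listed genes had medians of 0.02, 0.01 and 0.01. In HCT116 the members' medians were 0.05 after siMYBL1, -0.14 after siMYBL2 and -0.19 in the double knockdown, beside 0.0019, -0.02 and -0.02 for all listed genes. These medians describe the tables and were not tested.

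**Figure D1:**
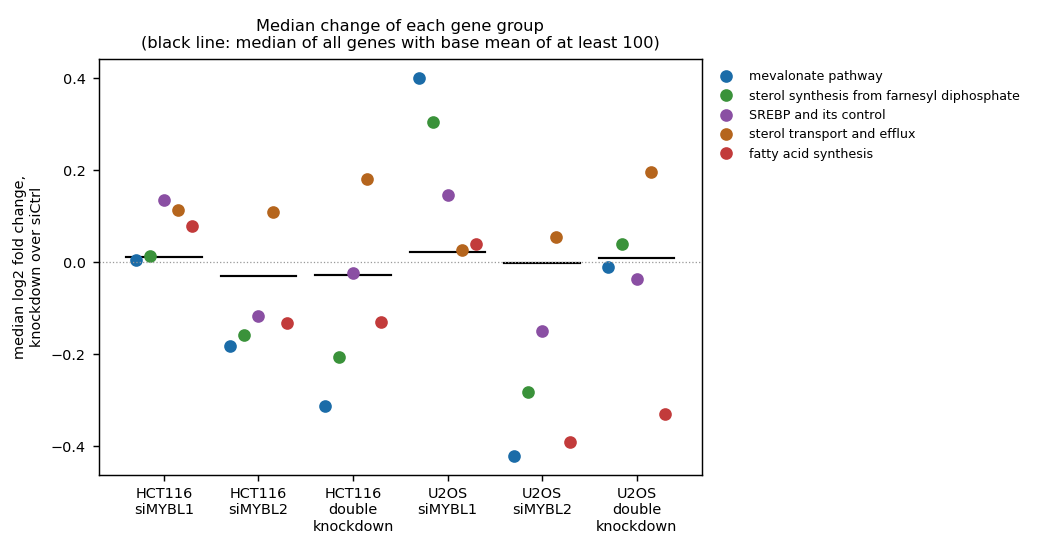
Median log2 fold change of knockdown over siCtrl (vertical axis) for each of the 5 gene groups (coloured points) in the 6 comparisons (horizontal axis), with a black line at the median of all genes whose base mean reached 100. In U2OS the mevalonate genes stood at 0.40 after siMYBL1 and at -0.42 after siMYBL2.

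After siMYBL1 in U2OS, enzymes at the entrance and in the later steps of cholesterol synthesis rose, together with a sterol carrier, while ACLY, an enzyme that supplies cytosolic acetyl-CoA, fell. MSMO1, the sterol C4-methyl oxidase, stood at 2717 normalized counts in siMYBL1 cells and 1317 in siCtrl cells. HMGCS1, the cytosolic HMG-CoA synthase that makes the precursor of mevalonate, had 13702 normalized counts in siMYBL1 cells and 7878 in siCtrl cells. ACLY, ATP citrate lyase, had 3438 normalized counts in siMYBL1 cells and 4904 in siCtrl cells. Of 35 listed members, 5 rose (14.3%) and 1 fell (2.86%), where 3.44% of all 14763 listed genes rose and 2.27% fell. The lowest base mean was 127 among listed members and 30.2 among all listed genes, so the 2 sets are unlike in level. Of the 12007 genes whose base mean reached 100, 473 rose and 323 fell. At an unadjusted p under 0.05 the counts were 14 higher (40%, beside 9.89% of all genes) and 2 lower (5.71%, beside 6.97%).

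The 5 members that rose spanned 3 gene groups. In the authors' deposited table MSMO1 rose by a log2 fold change of 1.04, SE 0.19, adjusted p = 7.58e-06. The same table gave HMGCS1 a rise of 0.80, SE 0.16, adjusted p = 0.000114. CYP51A1, the lanosterol 14-alpha-demethylase, rose by 0.74, SE 0.20, adjusted p = 0.00706 per the authors' deposited table, with 4672 normalized counts in siMYBL1 cells and 2793 in siCtrl cells. DHCR7, the 7-dehydrocholesterol reductase of a late step, rose by 0.63, SE 0.16, adjusted p = 0.00508 per the authors' deposited table, and stood at 4924 normalized counts in siMYBL1 cells and 3173 in siCtrl cells. STARD4, a soluble carrier that moves cholesterol between membranes, rose by 0.70, SE 0.19, adjusted p = 0.00896 per the authors' deposited table, with 3584 normalized counts in siMYBL1 cells and 2202 in siCtrl cells. ACLY was the member that fell, with a log2 fold change of -0.51 (SE 0.17, adjusted p = 0.0387) per the authors' deposited table.

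Around these, most of the mevalonate and sterol genes lay above 0 after siMYBL1 in U2OS without passing the test. Of the 7 mevalonate genes, 1 rose and 5 had a value above 0, with a group median of 0.40. Of all 14763 listed genes, 7708 had a value above 0. MVD, the decarboxylase that forms isopentenyl diphosphate, came nearest, at 0.49, SE 0.17, adjusted p = 0.0657 per the authors' deposited table. ACAT2, the cytosolic thiolase of the first step, stood at 0.50 (SE 0.20) and MVK, mevalonate kinase, at 0.40 (SE 0.20) per the authors' deposited table. PMVK, phosphomevalonate kinase, went against them, at -0.55 (SE 0.22) with an adjusted p of 0.133 per the authors' deposited table. Of the 11 sterol genes, 3 rose and 10 lay above 0, and the authors' deposited table gave SC5D, the sterol C5-desaturase, 0.52 (SE 0.20) and FDFT1, squalene synthase, 0.34 (SE 0.17). EBP, the sterol isomerase, at 0.02, TM7SF2, a C14-reductase, at -0.05 and HSD17B7, a 3-ketoreductase, at 0.06 were the sterol genes nearest to 0 per the authors' deposited table.

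After siMYBL1 in U2OS, 0 of the 5 regulators passed the authors' Wald test. At an unadjusted p under 0.05, 2 were higher and 0 lower, beside 9.89% and 6.97% of all genes. SREBF2 had 5723 normalized counts in siMYBL1 cells and 5393 in siCtrl cells, a log2 fold change of 0.09 with a 95% interval of -0.24 to 0.41 from the authors' deposited table. SREBF1 stood at -0.31 (SE 0.17) and INSIG1 at 0.34 (SE 0.17) per the authors' deposited table. INSIG2 stood at 0.64 (SE 0.29) with an adjusted p of 0.201 per the authors' deposited table. Fatty acid genes other than ACLY did not pass. SCD, the stearoyl-CoA desaturase that makes monounsaturated fatty acids, was at 0.37 (SE 0.16) and LPIN1, a phosphatidate phosphatase, at 0.44 (SE 0.21) per the authors' deposited table. FASN, fatty acid synthase, was at 0.18 (SE 0.18) there.

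**Figure D2:**
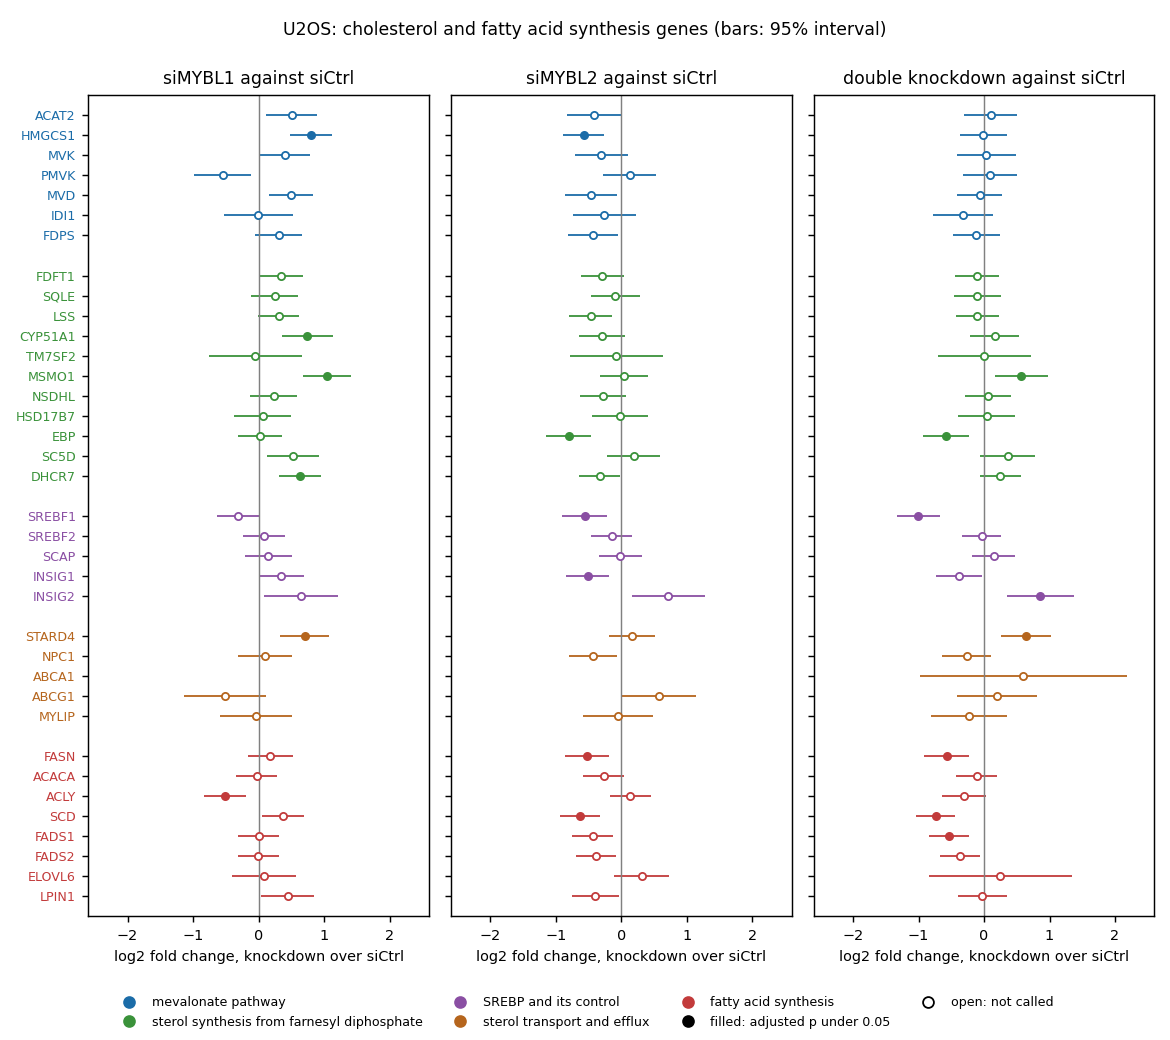
Log2 fold change of knockdown over siCtrl (horizontal axis) for each member (rows, coloured by gene group) after siMYBL1, siMYBL2 and the double knockdown in U2OS, with bars for the 95% interval and filled points where the adjusted p was under 0.05. Filled points lie mostly right of 0 after siMYBL1 (5 of 6) and all left of 0 after siMYBL2 (6 of 6).

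After siMYBL2 in U2OS, 6 members fell and 0 rose. The fall took in HMGCS1 at the entrance of the mevalonate pathway, EBP among the late sterol enzymes, the regulators SREBF1 and INSIG1, and the fatty acid enzymes FASN and SCD. EBP, which shifts a double bond in the sterol ring system, had 1149 normalized counts in siMYBL2 cells and 2007 in siCtrl cells. SCD had 12167 normalized counts in siMYBL2 cells and 18829 in siCtrl cells, and HMGCS1 5519.7 normalized counts in siMYBL2 cells and 8239 in siCtrl cells. The 6 that fell were 17.1% of 35 listed members, where 3.51% of all 15478 listed genes fell and 1.69% rose. Of the 12157 genes whose base mean reached 100, 509 fell and 235 rose. At an unadjusted p under 0.05, 15 members were lower (42.9%, beside 8.2% of all genes) and 2 higher (5.71%, beside 6.09%).

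EBP fell, with a log2 fold change of -0.80 (SE 0.18, adjusted p = 0.000393) per the authors' deposited table. SCD dropped by 0.63 (SE 0.16, adjusted p = 0.00339) per the authors' deposited table. HMGCS1 fell by 0.58 (SE 0.16, adjusted p = 0.0113) per the authors' deposited table, on the other side of 0 from its value after siMYBL1. SREBF1 had 2377 normalized counts in siMYBL2 cells and 3496 in siCtrl cells, with -0.56, SE 0.18, adjusted p = 0.0337 per the authors' deposited table. INSIG1, itself an SREBP target that restrains SREBP, stood at 1399 normalized counts in siMYBL2 cells and 2002 in siCtrl cells, with -0.52, SE 0.17, adjusted p = 0.0461 per the authors' deposited table. FASN, which builds palmitate, had 10048 normalized counts in siMYBL2 cells and 14452 in siCtrl cells, with -0.52, SE 0.17, adjusted p = 0.0487 per the authors' deposited table. INSIG1 and FASN sit close to the threshold.

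Of the 7 mevalonate genes, 6 lay below 0 after siMYBL2 in U2OS and the median was -0.42, and of the 11 sterol genes 9 lay below 0 with a median of -0.28. Of all 15478 listed genes, 7630 lay below 0. LSS, which closes squalene epoxide into lanosterol, reached -0.47, SE 0.17, adjusted p = 0.0736 per the authors' deposited table and did not pass. FADS1, the delta-5 desaturase of polyunsaturated fatty acids, reached -0.44, SE 0.16, adjusted p = 0.0835 there and did not pass. MVD at -0.46 (SE 0.20), FDPS, farnesyl diphosphate synthase, at -0.43 (SE 0.19) and ACAT2 at -0.42 (SE 0.21) were of like size per the authors' deposited table with adjusted p-values of 0.217, 0.240 and 0.325. The members that rose after siMYBL1 and did not fall here included MSMO1, at 0.04 with a 95% interval of -0.32 to 0.41, and STARD4, at 0.16 with -0.19 to 0.52, per the authors' deposited table. INSIG2 at 0.72 (SE 0.28) and ABCG1, a sterol exporter of the LXR target set, at 0.57 (SE 0.29) were the members above 0 with an unadjusted p under 0.05 per the authors' deposited table. SREBF2 (-0.15, interval -0.46 to 0.16) and SCAP (-0.02, interval -0.35 to 0.31) did not pass per the authors' deposited table.

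**Figure D3:**
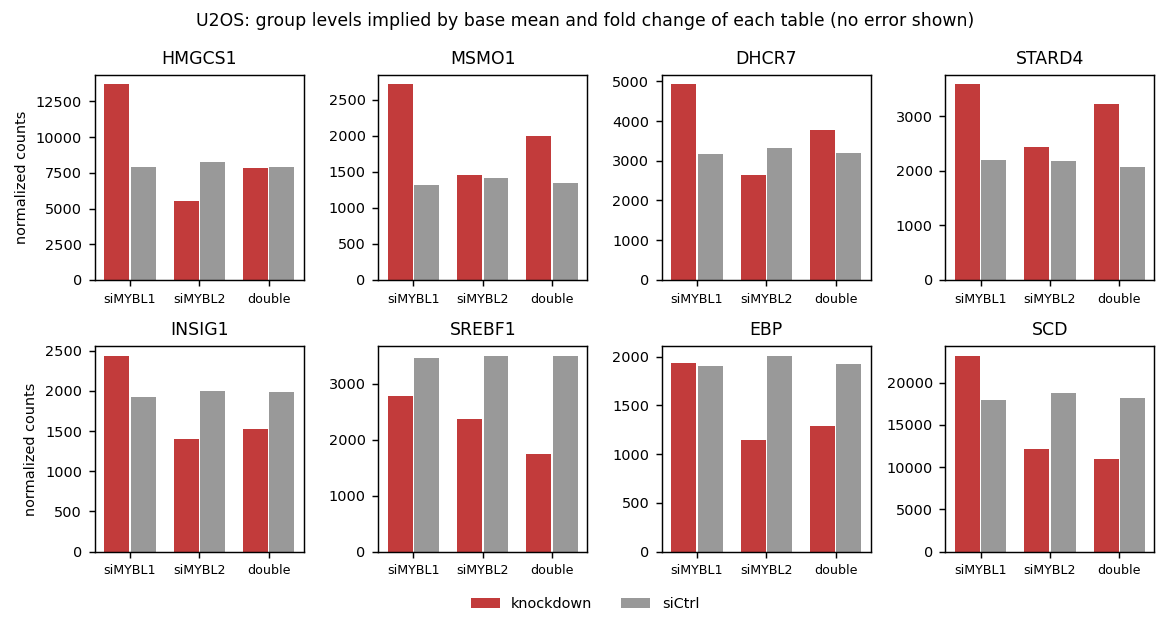
Levels in normalized counts (vertical axis) of 8 members in U2OS knockdown cells (red) and siCtrl cells (grey), computed from each table's base mean and fold change, with no error shown. HMGCS1 stands above its siCtrl bar after siMYBL1 and below it after siMYBL2, and SREBF1 is lowest in the double knockdown.

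The 2 single knockdowns were set directly against each other in U2OS by the difference of their log2 fold changes over the root of the summed squared SE, with a 2-sided normal p and Benjamini-Hochberg adjustment over 14701 genes. The siCtrl libraries stand in both fold changes and cancel in the difference, so this SE is larger than the true one. Of 35 members, 10 had a higher fold change after siMYBL1 than after siMYBL2 and 0 a lower one (28.6% of members, beside 2.92% of all genes in either direction). The members and this comparison were chosen with earlier results of these data known, so the share is a description and no independent test. At an unadjusted p under 0.05, 20 members differed (57.1%, beside 10.9% of all genes). HMGCS1 differed by 1.38, SE 0.23, adjusted p = 7.06e-07. SCD differed by 1.0006, SE 0.23, adjusted p = 0.00117, although its own change after siMYBL1 did not pass. CYP51A1 differed by 1.04, SE 0.27, adjusted p = 0.00718, MSMO1 by 1.0003, SE 0.26, adjusted p = 0.00989 and DHCR7 by 0.97, SE 0.23, adjusted p = 0.00233.

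The other members that differed were MVD at 0.95, ACAT2 at 0.92, INSIG1 at 0.86, EBP at 0.83 and LSS at 0.78, with adjusted p-values of 0.0170, 0.0456, 0.0195, 0.0318 and 0.0294. By group these 10 were 3 of 7 mevalonate genes, 5 of 11 sterol genes, 1 of 5 regulators and 1 of 8 fatty acid genes, and 0 of 4 listed transport genes, where 2 had an unadjusted p under 0.05 by the same normal test. Of all 14701 genes, 7666 had the higher value after siMYBL1, and so did 30 of 35 members. The 5 with the lower value were PMVK at -0.68, ACLY at -0.65, ABCG1 at -1.08, ELOVL6, an elongase of saturated fatty acids, at -0.23, and INSIG2 at -0.08, and 0 of them passed, the smallest adjusted p being 0.119 for ACLY, with 3 of them (ACLY, ABCG1 and PMVK) at an unadjusted p under 0.05. LPIN1 (0.84, adjusted p = 0.0763) came nearest to the threshold among members that did not pass.

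**Figure D4:**
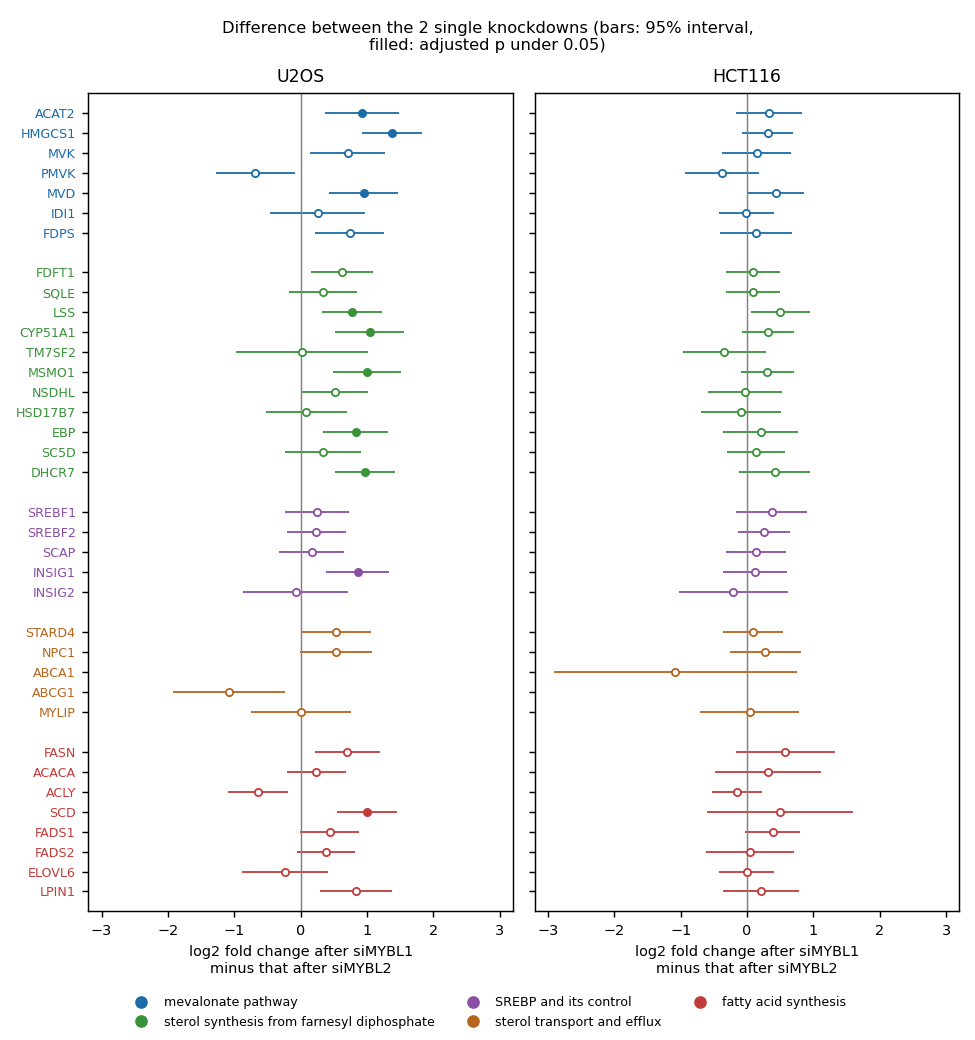
Log2 fold change after siMYBL1 minus that after siMYBL2 (horizontal axis) for each member (rows, coloured by gene group) in U2OS and in HCT116, with bars for the 95% interval and filled points where the adjusted p was under 0.05. The 10 filled points are all in the U2OS panel and right of 0.

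In the U2OS double knockdown the transcription factor gene SREBF1, the fatty acid enzymes SCD, FASN and FADS1 and the sterol isomerase EBP fell, while MSMO1, INSIG2 and STARD4 rose. SREBF1 had 1747 normalized counts in double knockdown cells and 3498 in siCtrl cells, SCD 10957 normalized counts in double knockdown cells and 18244 in siCtrl cells and FADS1 3781 normalized counts in double knockdown cells and 5482 in siCtrl cells. STARD4 had 3222 normalized counts in double knockdown cells and 2068 in siCtrl cells, MSMO1 2001 normalized counts in double knockdown cells and 1352 in siCtrl cells and INSIG2 506 normalized counts in double knockdown cells and 279 in siCtrl cells. Of 36 members, 3 rose (8.33%, beside 6.55% of all 16803 listed genes) and 5 fell (13.9%, beside 6.06% of all listed genes). The share that rose is close to that of all genes. Of the 12094 genes whose base mean reached 100, 988 rose and 934 fell. At an unadjusted p under 0.05, 3 were higher (8.33%, beside 12% of all genes) and 7 lower (19.4%, beside 11.1%).

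SREBF1 fell, with a log2 fold change of -1.0021 (SE 0.17, adjusted p = 1.5e-07) per the authors' deposited table, to about 49.9% of siCtrl. SCD fell by 0.74 (SE 0.15, adjusted p = 4.07e-05) per the authors' deposited table. EBP fell by 0.58 (adjusted p = 0.0158), FASN fell by 0.57 (adjusted p = 0.0131) and FADS1 fell by 0.54 (adjusted p = 0.00851) per the authors' deposited table. INSIG2 rose by 0.86, SE 0.26, adjusted p = 0.0117, and STARD4 by 0.64, SE 0.20, adjusted p = 0.0141, per the authors' deposited table. MSMO1 rose by 0.57, SE 0.21, adjusted p = 0.0495 per the authors' deposited table, which lies at the threshold, and its adjusted p was 0.0544 once the fold changes were recentred on the median of genes whose base mean reached 100. HMGCS1, with 7865 normalized counts in double knockdown cells and 7924 in siCtrl cells, had a log2 fold change of -0.01 and a 95% interval of -0.37 to 0.34 from the authors' deposited table.

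Of the 35 members in all 3 U2OS tables, 26 had a double knockdown value between the 2 single values, 2 lay above both and 7 below both. This count rests on shared siCtrl libraries and was not tested. It was not made for all genes, so it is not shown to be particular to the members. HMGCS1 stood at 0.80 after siMYBL1, -0.58 after siMYBL2 and -0.01 with both per the authors' deposited tables. DHCR7 stood at 0.63, -0.33 and 0.24 in the same order, and SREBF1 at -0.31, -0.56 and -1.0021. Set against siMYBL1 alone, the double knockdown differed in 1 of 35 members (2.86%, beside 1.54% of all genes), SCD, by -1.11, SE 0.22, adjusted p = 0.000116. HMGCS1 (-0.81, adjusted p = 0.0535) and FASN (-0.75, adjusted p = 0.125) did not pass that test, and 10 members had an unadjusted p under 0.05 (28.6%, beside 6.96% of all genes). Against siMYBL2 alone, 0 of 35 members differed by the normal test (1.05% of all genes did), with 2 at an unadjusted p under 0.05 (5.71%, beside 5.57% of all genes). Against the sum of the single changes, 0 of 35 members passed the normal test (0.211% of all genes did), with 0 at an unadjusted p under 0.05 (1.36% of all genes). The SE of this test counts the shared siCtrl libraries more than once and is too large, so it does not show that the changes add up. The departure of HMGCS1 was -0.23 with a 95% interval of -0.80 to 0.34.

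In HCT116 cells 3 members passed, and they did so in the double knockdown. After siMYBL1, 0 of 36 members passed the Wald test, where 0.115% of 17323 listed genes rose and 0.144% fell, and 1 member was higher (2.78%, beside 2.49% of all genes) and 0 lower (beside 2.07%) at an unadjusted p under 0.05. After siMYBL2, 0 of 35 members passed, where 0.291% of 13387 listed genes rose and 0.837% fell, and again 1 was higher (2.86%, beside 3.36% of all genes) and 0 lower (beside 4.71%) at an unadjusted p under 0.05. HMGCS1 had 5098 normalized counts after siMYBL1, against 4840.2 in siCtrl cells, and 4119.6 after siMYBL2, against 4853. MSMO1 stood at 0.15 after siMYBL1 with a 95% interval of -0.10 to 0.40, and at -0.16 after siMYBL2 with -0.47 to 0.15, per the authors' deposited tables. The members at an unadjusted p under 0.05 were LPIN1 after siMYBL1, at 0.50 (SE 0.20), and INSIG2 after siMYBL2, at 0.61 (SE 0.27), per the authors' deposited tables. FASN, at 0.38 (SE 0.33), and ACACA, at 0.13 (SE 0.36), were measured less closely after siMYBL1 than after siMYBL2. After siMYBL2 their SE were 0.19 and 0.20.

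In the HCT116 double knockdown, SQLE, INSIG1 and ACAT2 fell. SQLE, squalene epoxidase, a control point of sterol synthesis, had 1662 normalized counts in double knockdown cells and 2688 in siCtrl cells, and fell by 0.69 (SE 0.17, adjusted p = 0.00149) per the authors' deposited table. INSIG1 had 1959 normalized counts in double knockdown cells and 3106 in siCtrl cells, and fell by 0.67 (SE 0.20, adjusted p = 0.0198) per the authors' deposited table. ACAT2 had 914 normalized counts in double knockdown cells and 1418 in siCtrl cells, and fell by 0.63 (SE 0.20, adjusted p = 0.0257) per the authors' deposited table. These 3 were 8.57% of 35 listed members, beside 4.12% of all 12885 listed genes that fell, and 0 members rose by the Wald test, beside 2.82% of all genes. Of the 11401 genes whose base mean reached 100, 523 fell and 338 rose. At an unadjusted p under 0.05, 10 were lower (28.6%, beside 10.3% of all genes) and 2 higher (5.71%, beside 8.24%).

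Several members lay just outside the threshold in the HCT116 double knockdown. INSIG2 had 424 normalized counts in double knockdown cells and 251 in siCtrl cells, with 0.75, SE 0.26, adjusted p = 0.0525 per the authors' deposited table, and its adjusted p was 0.0421 after recentring on the median and 0.0483 where a base mean of 100 was required. ACLY (-0.40, adjusted p = 0.0548), HMGCS1 (-0.42, adjusted p = 0.0607) and EBP (-0.53, adjusted p = 0.0887) were lower without passing per the authors' deposited table. ABCA1, the cholesterol exporter under the sterol sensor LXR, had 88.5 normalized counts in double knockdown cells and 33.7 in siCtrl cells, with 1.39, SE 0.49, adjusted p = 0.0602 per the authors' deposited table, on low counts. SCD, with 23616 normalized counts in double knockdown cells and 45830.4 in siCtrl cells, had a wide SE, at -0.96, SE 0.52, adjusted p = 0.318 per the authors' deposited table. Its SE in HCT116 lay between 0.36 and 0.52 in the 3 tables, against 0.15 to 0.16 in U2OS, so its level was measured less closely in HCT116. The mevalonate genes had 6 of 7 values below 0 and a median of -0.31, and the sterol genes 8 of 11 and a median of -0.21. Of all 12885 listed genes, 6746 lay below 0.

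**Figure D5:**
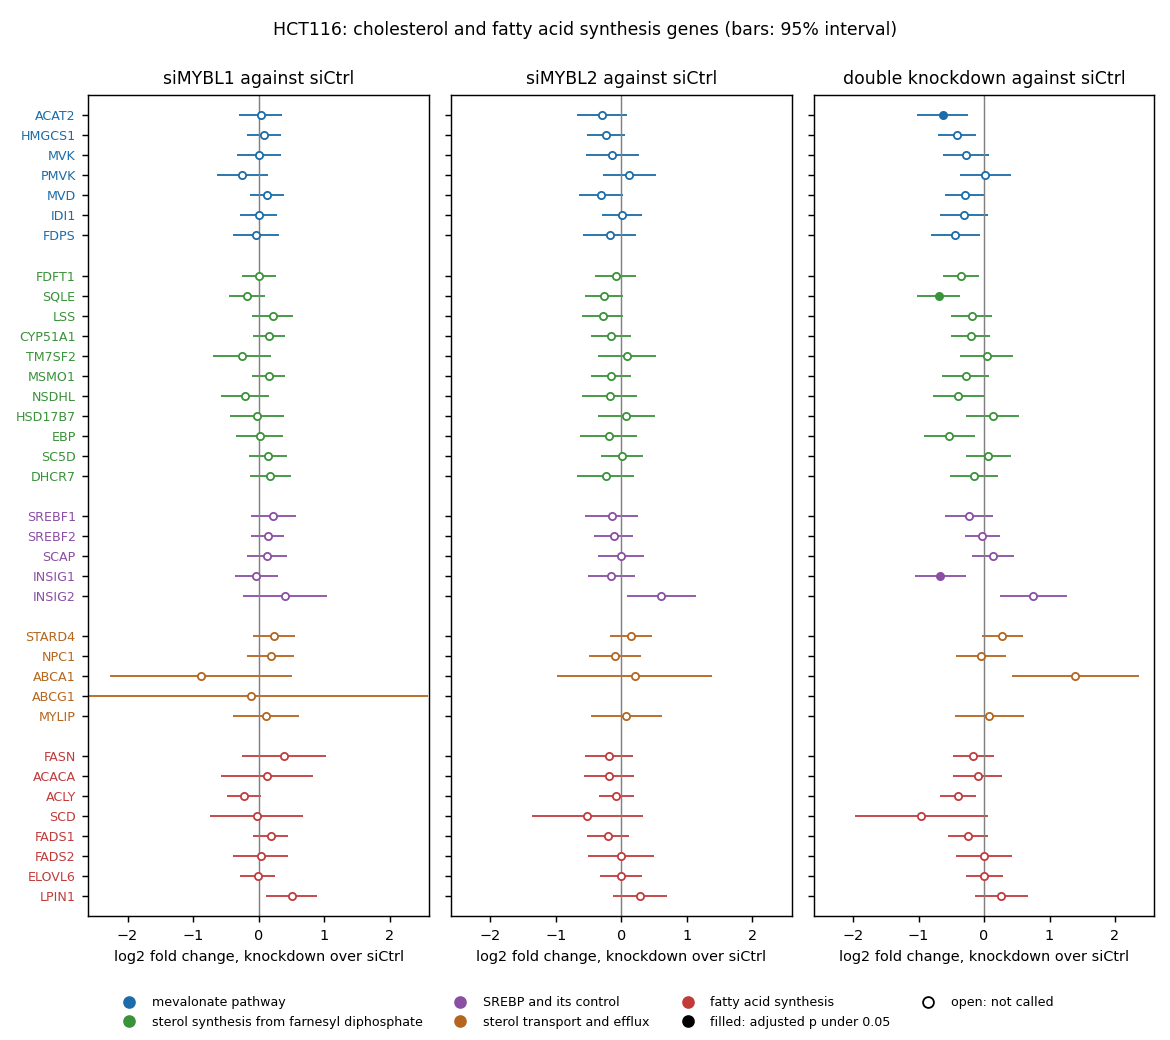
Log2 fold change of knockdown over siCtrl (horizontal axis) for each member (rows, coloured by gene group) after siMYBL1, siMYBL2 and the double knockdown in HCT116, with bars for the 95% interval and filled points where the adjusted p was under 0.05. The filled points are SQLE, INSIG1 and ACAT2 in the double knockdown, and the ABCG1 interval after siMYBL1 runs past the axis.

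Within HCT116, 0 of 35 members differed between siMYBL1 and siMYBL2 by the normal test, where 0.493% of all genes did, with 2 members, LSS and MVD, at an unadjusted p under 0.05 (5.71%, beside 5.24% of all genes). HMGCS1 differed by 0.31 with a 95% interval of -0.08 to 0.70, and LSS by 0.50 with 0.06 to 0.94. In this line too most members, 26 of 35, had the higher value after siMYBL1, beside 7105 of 13387 genes, a count that was not tested. The double knockdown differed from siMYBL1 in 0 of 35 members (1.28% of all genes) by the normal test, with 8 at an unadjusted p under 0.05 (22.9%, beside 5.64% of all genes). From siMYBL2 it differed in 0 (0.645% of all genes) by the same test, with 0 at an unadjusted p under 0.05 (3.25% of all genes). Against the sum of the single changes 0 of 35 passed (0.14% of all genes), with 1, ABCA1, at an unadjusted p under 0.05 (2.86%, beside 1.13% of all genes).

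The lines were compared for the same knockdown by the difference of their log2 fold changes, U2OS minus HCT116, which share no library. After siMYBL1, 0 of 35 members passed (0.0594% of all genes did) by the normal test, with 5 at an unadjusted p under 0.05 (14.3%, beside 4.79% of all genes). MSMO1 came nearest, at 0.89, SE 0.23, adjusted p = 0.0795, then HMGCS1, at 0.72, SE 0.21, adjusted p = 0.186. After siMYBL2, 0 of 34 passed (0.215% of all genes), with 2 at an unadjusted p under 0.05 (5.88%, beside 4.41% of all genes), EBP at -0.61 and LPIN1 at -0.68. In the double knockdown 0 of 35 passed (1.27% of all genes), with 4 at an unadjusted p under 0.05 (11.4%, close to the 9.49% of all genes). Those 4 were MSMO1 at 0.85, SE 0.28, adjusted p = 0.108, SREBF1 at -0.77, SE 0.25, adjusted p = 0.0988, ACAT2 at 0.74, SE 0.29, adjusted p = 0.249 and SQLE at 0.59, SE 0.25, adjusted p = 0.319. A member that passed in 1 line and not in the other is therefore not shown to differ between them.

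INSIG2 stood above siCtrl in all 6 tables, from 0.40 after siMYBL1 in HCT116 to 0.86 in the U2OS double knockdown, and passed only in the U2OS double knockdown by the authors' Wald test. The tables of a line share their siCtrl libraries, so these 6 values are not independent. Its level was 418, 455 and 506 normalized counts after siMYBL1, siMYBL2 and both in U2OS, against siCtrl levels of 268, 277 and 279. In HCT116 it was 324, 363 and 424, against 246, 238 and 251 in siCtrl cells. SREBF2 and SCAP did not pass in any table, and their values lay between -0.15 and 0.15. MYLIP, an LXR-induced ubiquitin ligase for lipoprotein receptors, lay between -0.23 and 0.11, and NPC1, which exports cholesterol from lysosomes, between -0.43 and 0.18, and neither passed per the authors' deposited tables. ACACA, acetyl-CoA carboxylase, lay between -0.27 and 0.13, and FADS2, the delta-6 desaturase, between -0.39 and 0.03, and neither passed per the authors' deposited tables. Several enzymes passed in no table per the authors' deposited tables. Among mevalonate genes, the log2 fold change of IDI1, which interconverts the isoprenoid units, ran over -0.31 to 0.01, that of FDPS over -0.44 to 0.30, that of MVK over -0.31 to 0.40, that of PMVK over -0.55 to 0.13 and that of MVD over -0.46 to 0.49. Among sterol genes, NSDHL, a C4-decarboxylating dehydrogenase, ran over -0.39 to 0.23, LSS over -0.47 to 0.31, FDFT1 over -0.35 to 0.34, SC5D over 0.01 to 0.52, HSD17B7 over -0.02 to 0.13 and TM7SF2 over -0.26 to 0.08. ELOVL6 ran over -0.02 to 0.31, LPIN1 over -0.40 to 0.50 and ABCG1, in the 4 tables that list it, over -0.51 to 0.57. ABCA1 was not listed in the U2OS single knockdown tables, nor ABCG1 in the HCT116 siMYBL2 and double knockdown tables.

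The siCtrl level of a member, computed anew from each of the 3 tables of a line, differed by a median factor of 1.05 in U2OS, at most 1.16, and of 1.08 in HCT116, at most 1.13, over 35 members each. These factors set how closely levels from 2 tables can be read side by side.

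Other genes of the pathway were followed in lists of 20 further sterol genes, 20 further fatty acid and lipid genes and 10 genes of fatty acid oxidation. Of all listed genes in U2OS, 3.44% rose and 2.27% fell after siMYBL1, 1.69% and 3.51% after siMYBL2, and 6.55% and 6.06% in the double knockdown. Of the further sterol genes there, 3 rose and 2 fell of 18 listed after siMYBL1, 0 rose and 1 fell of 19 after siMYBL2, and 2 rose and 0 fell of 19 in the double knockdown. At an unadjusted p under 0.05 by the authors' Wald test, 8 were higher and 3 lower after siMYBL1, beside 9.89% and 6.97% of all genes. These counts were 1 and 3 after siMYBL2 (6.09% and 8.2% of all genes), and 2 and 2 in the double knockdown (12% and 11.1%). Of all listed genes in HCT116, 0.115% rose and 0.144% fell after siMYBL1, 0.291% and 0.837% after siMYBL2, and 2.82% and 4.12% in the double knockdown. Of the further sterol genes there, 0 rose and 1 fell of 20 after siMYBL1, 0 rose and 2 fell of 19 after siMYBL2, and 1 rose and 3 fell of 19 in the double knockdown. At an unadjusted p under 0.05 by the same test, 2 were higher and 2 lower after siMYBL1, beside 2.49% and 2.07% of all genes. In HCT116 these counts were 0 and 2 after siMYBL2 (3.36% and 4.71% of all genes), and 2 and 6 in the double knockdown (8.24% and 10.3%). MBTPS1, the site-1 protease that makes the first cut in SREBP, rose in U2OS by 0.72, SE 0.18, adjusted p = 0.00345 after siMYBL1 and, with both siRNAs, by 0.70, SE 0.17, adjusted p = 0.000669 per the authors' deposited tables. MBTPS2, the site-2 protease of the next cut, fell in HCT116 by 0.93 (adjusted p = 0.00351) after siMYBL1 and, with both siRNAs, fell by 0.99 (adjusted p = 0.000858) per the authors' deposited tables. In U2OS, where it was chosen for naming after its values were seen, MBTPS2 had -1.01, SE 0.33, adjusted p = 0.0445 after siMYBL1 and, with both siRNAs, -0.83, SE 0.33, adjusted p = 0.0859 per the authors' deposited tables. The 2 proteases therefore stood on opposite sides of 0 in U2OS in both tables.

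NPC2, the soluble partner of NPC1, rose by 0.79, SE 0.16, adjusted p = 1.8e-05 in the U2OS double knockdown per the authors' deposited table. LBR, a nuclear envelope protein with sterol C14-reductase activity, fell by 0.51 (adjusted p = 0.0178) in the HCT116 double knockdown, and ERLIN1, a scaffold of sterol-regulated degradation, fell by 0.56 (adjusted p = 0.0343) after siMYBL2 in HCT116, per the authors' deposited tables. Of the further fatty acid and lipid genes, 1 of 19 listed passed after siMYBL1 in U2OS, 0 of 19 after siMYBL2 (2 higher and 2 lower at an unadjusted p under 0.05) and 3 of 20 (1 higher, 2 lower) in the double knockdown, beside the shares of all genes given above. In HCT116, 0 of 20 passed in each table by the Wald test, with 1 higher and 1 lower, 0 higher and 2 lower, and 2 higher and 6 lower at an unadjusted p under 0.05 after siMYBL1, siMYBL2 and both. Of all genes in HCT116, 2.49% were higher and 2.07% lower at that p after siMYBL1. The shares were 3.36% and 4.71% after siMYBL2, and 8.24% and 10.3% with both siRNAs. After siMYBL2 in U2OS they were 6.09% and 8.2%. ACSS2, which makes cytosolic acetyl-CoA from acetate, rose after siMYBL1 in U2OS, where ACLY fell. It had 865 normalized counts in siMYBL1 cells and 383 in siCtrl cells, with 1.17, SE 0.23, adjusted p = 5.13e-05 per the authors' deposited table. In the U2OS double knockdown DGAT1, which forms triglycerides, rose by 0.49 (adjusted p = 0.0418), and MID1IP1, an activator of acetyl-CoA carboxylase, fell by 0.68 (adjusted p = 0.0428) per the authors' deposited table. HACD3, a dehydratase of fatty acid elongation, fell there by 0.46 (adjusted p = 0.0432) per the authors' deposited table.

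Promoter sequences were matched for 31 of the 36 members, in 43 promoters, and searched on both strands. SQLE, ACAT2, FDFT1, FASN and ABCG1 are named only. CCAAT stood in at least 1 promoter of 21 of the 31 members (67.7%), beside 39.7% of 27305 genes in the RefSeq table. The match was spread over members that moved and members that did not: it was present in 8 of 12 members that passed in at least 1 table and in 13 of 19 that passed in none. Of the 5 members that rose after siMYBL1 in U2OS, 4 held it, in the promoters of HMGCS1, MSMO1, DHCR7 and STARD4, and CYP51A1 did not. Of the 5 with a promoter among those that fell after siMYBL2 in U2OS, 4 held it, and SREBF1 did not.

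The sterol regulatory element TCACNCCAC was found in 1 of 31 members, SREBF2 (3.23%), beside 1.39% of all genes. Sequences of cell cycle promoters were also searched. The letters TTTGAA of the CHR element stood in 3 members, DHCR7, ELOVL6 and TM7SF2 (9.68%, beside 18.2% of all genes). The E2F sequences TTTCGCGC, TTTGGCGC or TTTCCCGC stood in 3, ACACA, INSIG2 and MVK (9.68%, beside 3.30%). The MYB sequence AACNGNC stood in 12 (38.7%, beside 36.8%). Windows of 1 gene can overlap, as can matches to different motifs, and a match says only that the letters are present. The lack of a match says only that these exact letters are absent from the window, not that a site is missing.

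Some members share sequence or position with other genes, and the strand setting of the counting is not given in the labels. By the gene coordinates in the deposited tables, 14 of 36 members overlap a listed gene on the opposite strand, and 7 of them a protein-coding one, among them MVK with MMAB, CYP51A1 with AKAP9, ACAT2 with TCP1 and SOD2, SREBF1 with RAI1, NPC1 with RMC1, and FADS1 with FADS2. FDPS and HSD17B7 have near-identical pseudogene copies, so their values are uncertain.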

How the data were processed

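Total RNA of 16 libraries underwent paired-end sequencing, per the series' design text. The submitters' processing notes name cutadapt 4.4, Salmon 1.10.1, DESeq2 1.40 and hg38, without order or settings. Annotation and filters are unstated in the sources at hand. Used were 6 tables of the authors' comparisons, each of 1 knockdown against siCtrl. The headers name the base mean that the authors deposited, a signal, without a number of libraries. It was taken to average the normalized counts of the 4 libraries of a comparison. The authors' log2 fold change has its SE on the log2 scale, and their deposited Wald statistic is a score. The deposited p-value matched a 2-sided normal test of that statistic, and the authors' adjusted p-value one by Benjamini and Hochberg over all genes of a table. The lowest base mean listed lay between 4.46 and 40.4. Where the base mean reached 100, the median SE was 0.187 to 0.224.

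The authors' test was used as deposited with a threshold of 0.05, and differences between tables were tested as described in the text, 11 in all, with Python 3.11.15, pandas 2.3.3 and scipy 1.17.1; the difference test was tested on simulated data. With b the base mean and l the log2 fold change, the siCtrl level is b times 2 over 1 plus the fold, and the knockdown level that times the fold, which holds for groups of equal size. A p-value covers the spread between these libraries. Members were matched by symbol to the tables' gene names. The members, lists and tests were chosen with earlier results of these data known. All 36 members could be named, and from each further list up to 3 genes with the smallest adjusted p under 0.05 per comparison; values of some genes that this rule takes are not reported here. Alternatives were other thresholds, recentred fold changes, a minimum base mean of 100 and a correlation of 0.5 for shared controls.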

Additional observations from a re-analysis of the deposited data

How the results depend on the processing

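Of the recomputed counts and medians, 62 stayed near the reported value, 10 moved and 0 reversed. In the HCT116 double knockdown 3 members passed at 0.05, 8 at an adjusted p under 0.1 and 1 at 0.01. At 0.01, 2 members passed after siMYBL2 in U2OS in place of 6, and 3 in the U2OS double knockdown in place of 8. With a correlation of 0.5 for the shared controls, the members that differed were 20 in place of 10 for siMYBL1 against siMYBL2 in U2OS, 8 in place of 1 for the double knockdown against siMYBL1 in U2OS, 2 in place of 0 for it against siMYBL2 in U2OS, 5 in place of 0 for it against siMYBL1 in HCT116 and 1 in place of 0 for siMYBL1 against siMYBL2 in HCT116. The smaller error follows from the setting itself. The same correlation, added after seeing the data for the sum of the single changes, left 0 members passing that test in U2OS and 0 in HCT116. Among the 20 were 3 with the lower value after siMYBL1, ACLY, ABCG1 and PMVK. Where a base mean of 100 was required, 2 members, SCD and HMGCS1, differed between the double knockdown and siMYBL1 in U2OS. Recentring on the median left ACAT2 outside the threshold between siMYBL1 and siMYBL2 in U2OS (adjusted p = 0.0566). The authors' own call column, which also asks for a log2 fold change above 0.5 in size, was added after seeing the data. No paired analysis was possible because the tables hold no values per library, and leaving out each replicate was not run for the same reason. With 2 libraries per group, and median SE near 0.2, small changes of single members were not detectable.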

Other observations

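Genes of fatty acid oxidation were followed beside the synthesis genes. In the U2OS double knockdown HADHB, a subunit of the mitochondrial trifunctional protein, rose by 0.67, SE 0.16, adjusted p = 0.000606 per the authors' deposited table. Of 10 listed genes 1 rose and 0 fell there, beside 6.55% and 6.06% of all genes, so the count that passed is near that of all genes. The count at an unadjusted p under 0.05 by the same Wald test is not. By it 5 of 10 were higher and 1 lower, beside 12% and 11.1% of all genes. The group median was 0.35, beside 0.01 for all listed genes, and was not tested. ACADM, the medium-chain acyl-CoA dehydrogenase, had 679 normalized counts in siMYBL1 cells and 1102 in siCtrl cells in U2OS, a log2 fold change of -0.70 (SE 0.20, adjusted p = 0.0141) per the authors' deposited table, and was the only one of 9 listed genes called there, beside 3.44% of all genes that rose and 2.27% that fell. In the HCT116 double knockdown ACADM had 823 normalized counts in double knockdown cells and 1339 in siCtrl cells, a log2 fold change of -0.70 (SE 0.17, adjusted p = 0.00172) per the authors' deposited table, as 1 of 9 listed genes, beside 2.82% of all genes that rose and 4.12% that fell. After siMYBL2 in U2OS 0 of 9 listed genes passed, with 2 higher and 0 lower at an unadjusted p under 0.05, and in HCT116 0 of 9 passed after siMYBL1 and after siMYBL2 by the authors' Wald test, with 1 higher and 1 lower and with 1 higher and 0 lower at an unadjusted p under 0.05. Of all genes, 6.09% were higher and 8.2% lower at that p after siMYBL2 in U2OS. In HCT116 the shares were 2.49% and 2.07% after siMYBL1, and 3.36% and 4.71% after siMYBL2.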
